A study of Solanum lycopersicum with 4 samples.

Results

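The genes that flank TERMINATING FLOWER (TMF) on tomato chromosome 9 were compared between tmf mutant and wild-type shoot meristems. The members were chosen by position alone: all 2510 identifiers of chromosome 9 were sorted, and the 100 before and the 100 after TMF (Solyc09g090180.1.1) were taken, without TMF itself. They are 200 of the 34727 identifiers measured, and 146 of them had a mean of at least 1 normalised read over the 4 libraries and were tested. A normalised read is 1 read in 10000000 gene-assigned reads. The plants were tmf mutants of Solanum lycopersicum and, as the control, wild type of the same species, with 2 biological replicates per genotype. Several plants gave the pooled meristems of a replicate, which were harvested on day 8 after germination and are labelled as late vegetative. The sources used here do not give the cultivar, the tmf allele, the way the mutation was made or any crosses back to the wild type.

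A mutation does not travel alone. The DNA beside it is inherited with it, the more often the closer it lies, and a mutant line can keep a stretch of chromosome from the plant in which the mutation arose. Genes in such a stretch can carry other alleles than the wild-type line, and a deletion or rearrangement at the mutated gene can also touch its neighbours. Either can appear in RNA as expression that differs between the lines next to the mutated gene. TMF itself encodes a nuclear protein of the ALOG family that acts in the shoot meristem before flowering. Identifier order stands here for chromosome order. Neither the deposited table nor the reference table pairs an identifier with a gene name (0 of 34727 matched), so the members are given by identifier, with no name or role. The identifiers give no distances, and the members before TMF run through gaps in the numbering, from the Solyc09g083 through the Solyc09g084 to the Solyc09g089 and Solyc09g090 series.

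Mutant libraries held 19674165 and 17540331 gene-assigned reads and wild-type libraries 28310492 and 22977411, so both mutant libraries were the shallower. After scaling, 1 read stood for 0.508 and 0.57 normalised reads in mutant libraries and 0.353 and 0.435 in wild-type libraries. At equal low counts the mutant value was therefore the higher. For TMF, mutant libraries held 6.1 and 6.27 normalised reads and wild-type libraries 1238 and 2224, so the libraries matched their labels at this gene (log2 fold change -7.85, SE 0.34, adjusted p in limma 7.7e-05). Marker identifiers were taken from published tomato nomenclature, which the tables used here do not hold. The meristem genes WUS, TKN2, GOB, CLV3 and LS were read in every library, and none of the 5 passed the test. A list of 10 floral organ MADS-box genes had summed levels of 1962 and 692 normalised reads in mutant libraries and 112 and 163 in wild-type libraries. Of the 10, 3 passed (EJ2, TM5 and J2), all higher in the mutant. TM6, which did not pass, held 205 and 201 in mutant libraries and 100 and 139 in wild-type libraries, most of the wild-type sums. For 2 RBCS genes of green leaf tissue the sums were 13327 and 25197 in mutant libraries and 17650 and 21297 in wild-type libraries. None of these genes is a member, and the part of other tissues in the values below was not tested. In bulk tissue, fewer cells of a type and less RNA per cell cannot be told apart.

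No tested member passed the main test. Of the 146 tested members, 0 passed at a Benjamini-Hochberg adjusted p under 0.05 (limma on log2(value + 1)), where 0.215% of all 21437 tested genes did. At a share that small, 0 of 146 does not set the members apart from all genes. The smallest adjusted p among the members was 0.11. At an unadjusted p under 0.05 there were 12 members, 8.22% of those tested, against 6.2% of all genes. All 12 were higher in the mutant and 0 were lower, where 4.67% of all genes were higher and 1.53% lower at that limit. On reads recovered from the values, edgeR's quasi-likelihood test also called 0 members (0.233% of all genes called). DESeq2 called 4 members, all higher in the mutant, where it called 1.04% of all genes. With 2 pools per genotype, the precision of every single gene is limited.

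The genes closest to TMF had overlapping levels in both genotypes. For Solyc09g090160.2.1, at place 2 before TMF, mutant libraries held 527 and 600.3 normalised reads and wild-type libraries 615 and 457. For Solyc09g090190.2.1, directly after TMF, mutant libraries held 1875 and 2136 and wild-type libraries 2349 and 1816. For Solyc09g090200.2.1, at place 2 after TMF, the values were 492 and 625 (mutant) and 502 and 524 (wild type). In each of these 3 genes the values of the genotypes overlapped. Their log2 fold changes were 0.09 ± 0.24, -0.05 ± 0.25 and 0.11 ± 0.23 (SE), while that of TMF was -7.85.

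For Solyc09g090140.2.1, at place 4 before TMF, the values were 5147 and 5940 normalised reads (mutant) and 6986 and 5955 (wild type). Its genotypes did not overlap, but by a narrow margin, and its log2 fold change was -0.22 ± 0.30 (SE). Solyc09g090130.2.1, at place 5 before TMF, was the member nearest to TMF with a large difference. Mutant libraries held 254 and 238 and wild-type libraries 55.1 and 98.8, a ratio of means of 3.20. Both mutant values lay well above both wild-type values, and the mutant libraries were close to each other. The log2 fold change was 1.72 ± 0.33 (SE), which missed the threshold in limma (adjusted p = 0.14) and in edgeR's quasi-likelihood test (0.12) and passed in DESeq2 (0.0017). 

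The other tested genes among the nearest 5 on each side were Solyc09g090110.2.1 and Solyc09g090120.2.1 before TMF and Solyc09g090220.2.1, Solyc09g090230.1.1 and Solyc09g090240.1.1 after it. Their log2 fold changes ran from -0.16 to 0.47, with adjusted p of 0.98 or above in limma. Another 4 identifiers within 8 places of TMF were below the mean of 1. Solyc09g090170.1.1, directly before TMF, and Solyc09g090210.2.1, at place 3 after it, had no read in any library, which allows up to 1.71 normalised reads in the shallowest one. Solyc09g090150.2.1 had 1 and 2 reads (mutant) and 0 and 1 (wild type). Solyc09g090260.1.1 had 4 and 2 reads (mutant) and 1 and 1 (wild type), with a mean of 0.99, just outside the limit, while Solyc09g090090.1.1 lay just inside it with 1.34. These floors cover counting error only, as PCR copies cannot be told from separate molecules.

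**Figure D1:**
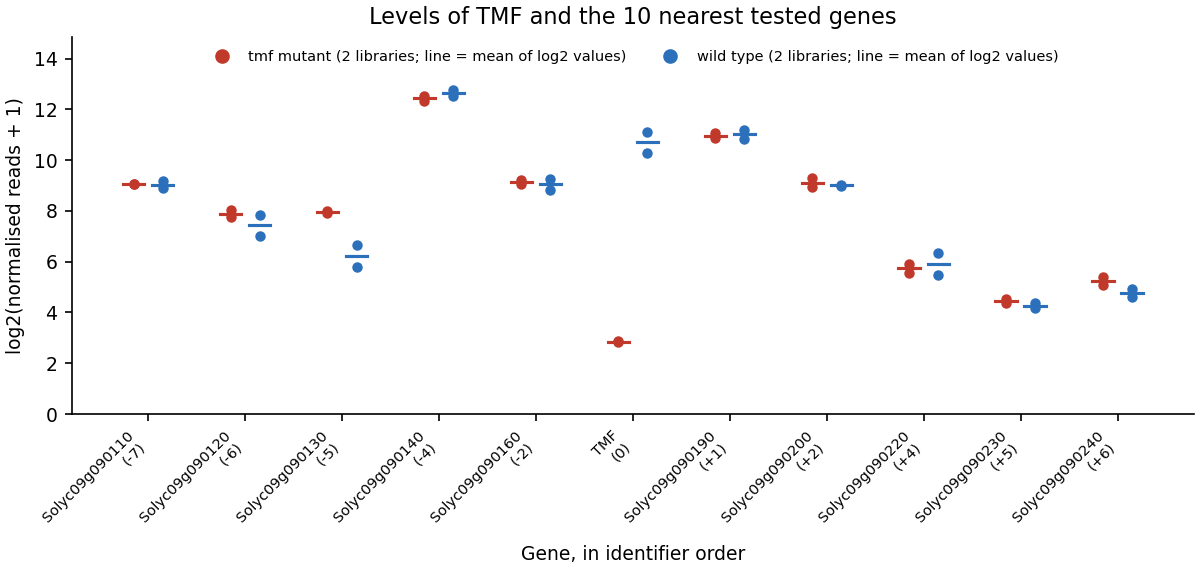
Level of TMF and of the 10 nearest tested genes, as log2(normalised reads + 1) on the vertical axis, with genes in identifier order and their place relative to TMF in brackets. Points are libraries (tmf mutant left, wild type right) and lines are means of 2 log2 values; TMF is far lower in the mutant, and Solyc09g090130 (place -5) has a ratio of means of 3.20, while the others lie between -0.22 and 0.47 in log2 fold change.

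Windows of 200 consecutive identifiers were laid along the rest of chromosome 9, outward from both edges of the flanks, which gave 10 complete windows before and 1 after. The question was whether expression next to the mutated gene differed between genotypes more than in these. The median absolute log2 fold change of the flanking genes was 0.215, against 0.184 to 0.335 in the 11 other windows and 0.227 over all tested genes. A larger value was found in 6 of the 11, so by this median the flanks of TMF stood in the middle of the 12 windows. A median does not register a minority of large differences. The 90th percentile of the absolute log2 fold change was 0.914 in the flanks and larger in 3 of the 11. The share with an absolute log2 fold change of at least 1 (8.22%) was larger in 4. The share at an unadjusted p under 0.05 in limma (8.22%) was larger in 2. The members' median of the mean levels was 174 normalised reads, within the 64.6 to 206 of the other windows. The 3 windows with the largest median absolute log2 fold changes were those at 4, 5 and 7 windows before TMF, with 88, 71 and 90 tested genes. Their median levels, at 64.6 to 101, were the lowest of all.

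The differences between genotypes in the flanks were about as large as those between replicates. The median absolute difference between 1 mutant and 1 wild-type library was 0.308 in the members, as the median of the 4 possible pairs, which ran from 0.266 to 0.446. The 2 mutant replicates differed by a median of 0.301 and the wild-type replicates by 0.387 in the same genes. Over all tested genes these values were 0.311 between genotypes, 0.32 between mutant replicates and 0.352 between wild-type replicates. The rank of the flanks depended on the libraries used. When mutant replicate 2 was left out, 8 windows had a larger median absolute log2 fold change, but leaving out mutant replicate 1 gave 3, and leaving out replicates 1 and 2 of the wild type gave 3 and 2.

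Narrower flanks gave no larger differences. Within 50 identifiers on each side of TMF the median absolute log2 fold change was 0.211, and 15 of 23 windows of that size had a larger one. Within 25 identifiers it was 0.193, and 38 of 48 windows were larger. Of 151 windows of 200 identifiers on the other chromosomes, 99 had a larger median than the flanks (65.6%), within a range of 0.16 to 0.854.

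**Figure D2:**
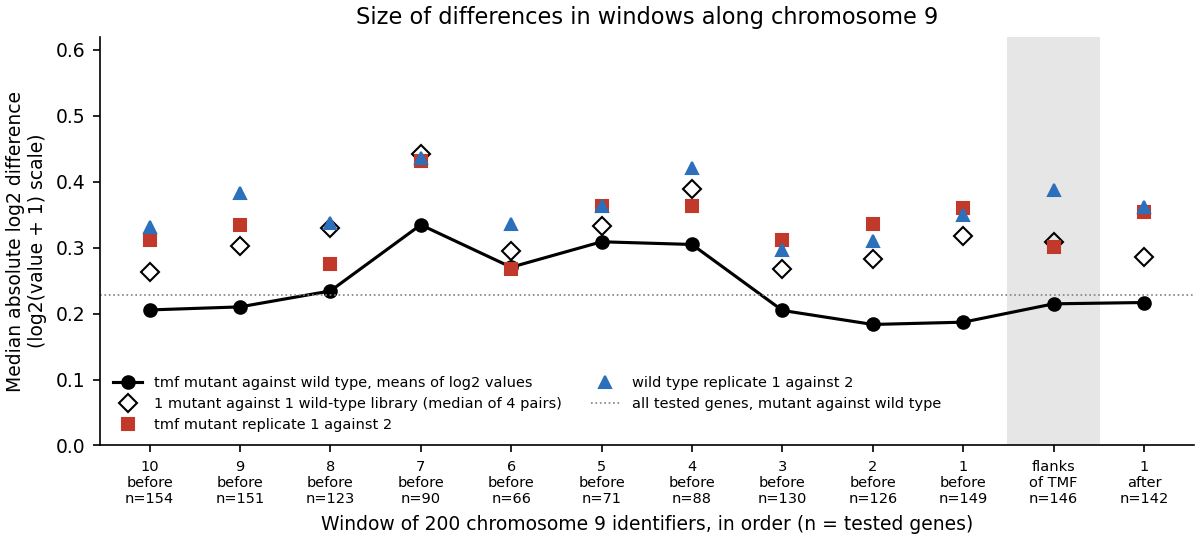
Median absolute log2 difference (vertical axis, log2(value + 1) scale) in 12 windows of 200 chromosome 9 identifiers in order, with the number of tested genes under each; the flanks of TMF are shaded. Filled circles are mutant against wild-type means, diamonds pairs of single libraries from the 2 genotypes, squares and triangles the replicates of each genotype; at 0.215 the flanks lie near the dotted line of all tested genes, and 6 of the other 11 windows lie above them.

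No well-read member was silent in the other genotype. With a minimum of 10 reads in the genotype that had them, 0 of the 200 members had reads in the mutant alone and 0 in the wild type alone. Among all identifiers 45 genes (0.13%) were of the first kind and 42 (0.121%) of the second. With shares this small, 0 of 200 does not set the flanks apart from other identifiers. As many as 33 members (16.5%) had no read in any library, 22 before TMF and 11 after it, against 25.2% of all identifiers. Reads were found in all 4 libraries for 144 of the 146 tested members.

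The flanking genes leaned towards higher values in the mutant, by a small amount. Of the 146 tested members 98 had a positive log2 fold change (67.1%), against 55.7% of all genes, and their median was 0.11 against 0.04. The share was larger in 1 of the 11 other chromosome 9 windows, and the median was larger in 3 of them. Of the 151 windows on the other chromosomes, 20 had a larger median (13.2%). The 2 mutant values lay above both wild-type values in 38 of the 146 tested members and below both in 12. Over all tested genes, 20.7% lay above and 12.1% below. Both directions together made up 34.2% of the members and 32.8% of all genes. The members' median depended on scaling and on single libraries. With TMM rescaling it was 0.05 against -0.02 for all genes, and 59.6% of members were positive against 47.8% of all genes. Without wild-type replicate 1 it was 0.05 against 0.03, with shares of 56.8% and 53.4%. Without wild-type replicate 2 it was 0.23 against 0.06, with shares of 69.9% and 55.3%.

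The lean was present on both sides of TMF, with 45 of 67 tested genes positive before it and 53 of 79 after it, while the large differences lay before it. Of the 12 members with an absolute log2 fold change of at least 1 (8.22%, against 7.65% of all genes), 11 lay before TMF and 1 after it. These were 16.4% of the 67 tested genes before TMF and 1.27% of the 79 after it. At an unadjusted p under 0.05 in limma the shares were 14.9% before TMF and 2.53% after it, against 6.2% of all genes. The median absolute log2 fold change was 0.261 before TMF and 0.194 after it. Levels differed too, with a median of 128 normalised reads before TMF and 239 after it. Among the 15 tested genes in the 25 places before TMF, 14 were positive. That count was 12 with TMM or RLE rescaling and 9 without wild-type replicate 1, and the median of the 15 was 0.18.

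**Figure D3:**
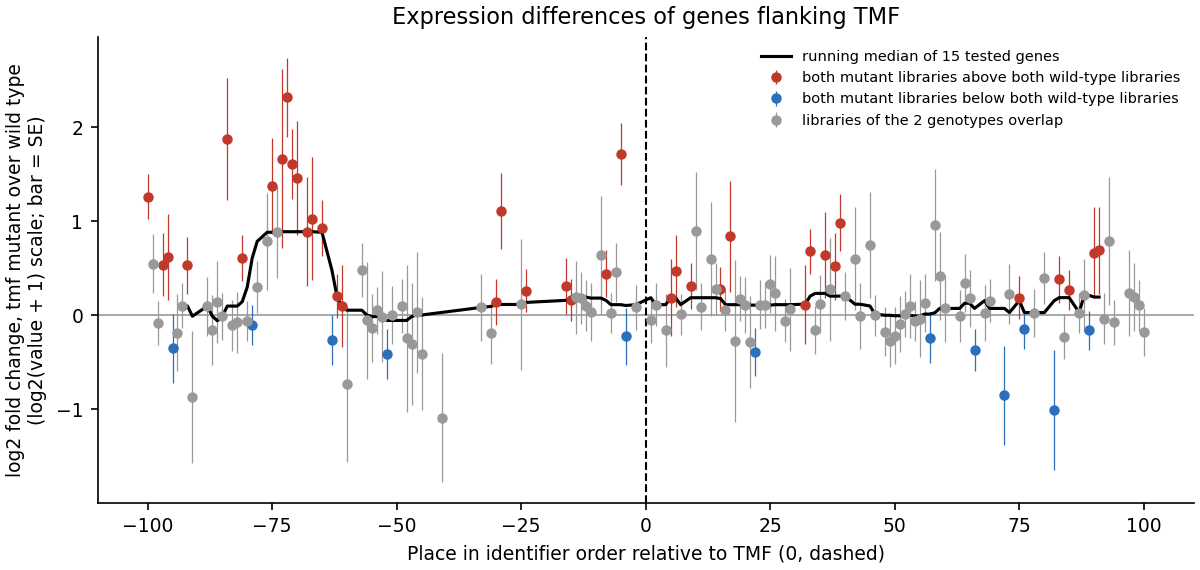
Log2 fold change of each tested member, tmf mutant over wild type (vertical axis, log2(value + 1) scale, bars are SE), against its place in identifier order relative to TMF (dashed line). Red points have both mutant libraries above both wild-type libraries, blue points both below, and grey points overlap; the black line is the running median of 15 tested genes. Most members lie near 0, and a run of positive values lies between places -78 and -65.

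One stretch of the identifier order before TMF was picked out after its values were seen. It is a run of 11 tested genes in order with a positive log2 fold change, from Solyc09g083420.2.1 to Solyc09g089530.2.1 at places 78 to 65 before TMF. The log2 fold changes ran from 0.30 to 2.32, with a median of 1.03. The mean levels ran from 1.39 to 1109 normalised reads. The run crosses the gaps in the numbering between the Solyc09g083, Solyc09g084 and Solyc09g089 series, so how near its genes lie to each other is not known. Of the 12 members with an absolute log2 fold change of at least 1, 6 lay in the run and 6 outside it. Those in the run were of the Solyc09g084 series, except Solyc09g089510.2.1. None of the 11 passed in limma. The sign stayed positive under every setting in which each gene was tested, the fits without 1 library included. The run was chosen by its signs in these same libraries, so this adds no separate support. Without mutant replicate 2, Solyc09g084460.2.1 had 1 read (mutant) and 1 and 1 (wild type), so its sign came from the scaling.

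Runs of this kind were also found elsewhere on chromosome 9. A run of 12 genes of positive sign began at Solyc09g018750.2.1 (median log2 fold change 0.29) and another of 11 at Solyc09g015360.2.1 (median 0.54). A run of 8 that began at Solyc09g005390.2.1 had a median of 1.52, above that of the run before TMF. The longest on the chromosome was among the flanking genes, with 15 genes from Solyc09g089880.2.1 to Solyc09g090130.2.1 and a median of 0.19, and the flanks held another of 11 from Solyc09g090230.1.1 to Solyc09g090350.2.1 with a median of 0.28. All run lengths were counted in the main test only. The run of 15 includes Solyc09g090110.2.1, with a log2 fold change of 0.02. Its sign turned with DESeq2 and with RLE and TMM rescaling, which breaks that run.

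Solyc09g084470.2.1 had the largest log2 fold change of all members. Mutant libraries held 154.5 and 333.5 normalised reads and wild-type libraries 35.7 and 55.7. The genotypes were well apart, and mutant replicate 2 was far above mutant replicate 1. The log2 fold change was 2.32 ± 0.42 (SE), with an adjusted p of 0.11 in limma, 0.08 in edgeR's quasi-likelihood test and 5.8e-06 in DESeq2. Its neighbour Solyc09g084480.2.1, also picked out by its values, held 961 and 1782 in mutant libraries and 314 and 578 in wild-type libraries. The 2 genes had the same order of libraries, with mutant replicate 2 highest and wild-type replicate 1 lowest. Its log2 fold change was 1.62 ± 0.37 (SE), with an adjusted p of 0.25 in limma, 0.23 in edgeR and 0.0033 in DESeq2. How reads that match several genes were counted is not known from the sources used here, so neighbours that are close copies may share reads. Towards lower values the largest differences, among non-overlapping members that averaged 50 normalised reads or more, were smaller. For Solyc09g089660.2.1, at place 52 before TMF, the values were 200.3 and 241 (mutant) and 347 and 245 (wild type), and for Solyc09g090400.2.1, at place 22 after TMF, 266 and 199 (mutant) and 333 and 275 (wild type). Their log2 fold changes were -0.41 ± 0.26 and -0.39 ± 0.26 (SE), each with an adjusted p of 0.97 in limma.

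Solyc09g083200.2.1 and Solyc09g089890.1.1 were also picked out by their values. For Solyc09g083200.2.1, the member farthest before TMF, mutant libraries held 449 and 560 normalised reads and wild-type libraries 193 and 225. The gap between the genotypes was wider than that between replicates of either, and the ratio of means was 2.42. Its log2 fold change was 1.26 ± 0.24 (SE), with an adjusted p of 0.13 in limma, 0.12 in edgeR's quasi-likelihood test and 0.0058 in DESeq2. For Solyc09g089890.1.1, at place 29 before TMF, the values were 40.7 and 33.1 (mutant) and 14.1 and 19.1 (wild type), which did not overlap. Its log2 fold change was 1.11 ± 0.41 (SE), with an adjusted p of 0.66 in limma.

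The other 7 members with differences of this size had at most 51 reads in any library. Solyc09g083360.2.1, at place 84 before TMF, had 38 and 12 reads (mutant) and 4 and 9 (wild type). Solyc09g084440.2.1, at place 75, had 27 and 51 reads (mutant) and 22 and 15 (wild type). Solyc09g084460.2.1, at place 73, had 1 and 21 reads (mutant) and 1 and 1 (wild type), so that mutant replicate 2 alone set its log2 fold change of 1.67. Solyc09g084490.2.1 had 20 and 23 reads (mutant) and 5 and 15 (wild type), and Solyc09g089510.2.1 had 5 and 3 (mutant) and 0 and 3 (wild type), equal in a pair of libraries before scaling. The members that were lower in the mutant by this much were Solyc09g089770.2.1, with 2 and 10 reads (mutant) and 15 and 20 (wild type), and Solyc09g091000.2.1, with 1 and 4 reads (mutant) and 7 and 11 (wild type). Their log2 fold changes were -1.09 ± 0.68 and -1.01 ± 0.64 (SE), and the normalised values overlapped in the first and not in the second.

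**Figure D4:**
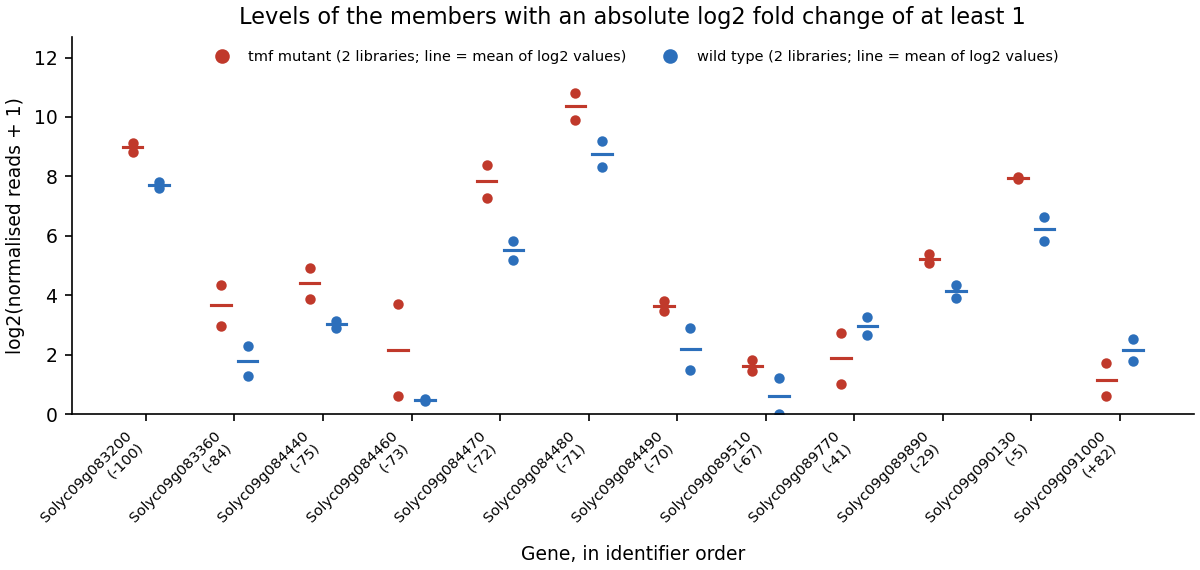
Levels of the 12 members with an absolute log2 fold change of at least 1, as log2(normalised reads + 1) on the vertical axis, in identifier order with the place relative to TMF in brackets. Points are libraries (tmf mutant left, wild type right) and lines are means of 2 log2 values; 10 genes are higher and 2 lower in the mutant, and 5 of the 12 have a wild-type library below 2 on this axis.

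The members with the highest values in the table, which are not corrected for gene length, are given as a check at high counts. Besides Solyc09g090140.2.1 they were Solyc09g083380.2.1, Solyc09g090520.2.1, Solyc09g090660.2.1 and Solyc09g091180.2.1, none paired with a name in the sources used here. Solyc09g083380.2.1 held 5482 and 4201 normalised reads in mutant libraries and 4215 and 6070 in wild-type libraries. The 4 genes had log2 fold changes from -0.18 to -0.08 with standard errors of 0.25 to 0.32, and their genotypes overlapped. Solyc09g091180.2.1, the last member after TMF, held 2371 and 1826 (mutant) and 2558 and 2167 (wild type). Over all 146 tested members, 108 had an absolute log2 fold change under 0.5 (74%, against 77.6% of all genes), and their quartiles were -0.06 and 0.44.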

How the data were processed

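Per the labels' protocols, RNA from acetone-fixed meristem pools was selected on oligo-dT beads and sequenced after PCR. Bowtie 0.12.5 and edgeR are named in the submitters' processing notes; the sources used here do not give genome build, annotation, counting tool or strandedness, and overlapping genes and close copies may share reads. The deposited signal values are gene reads that the authors scaled to 10000000 per library. Dividing each library by its smallest value above 0 gave whole numbers for 100% of values (tolerance 1e-06), taken as reads. The main test was limma 3.58.1 (R 4.3.3) on log2(value + 1), with a trend of variance on mean, over all genes with a mean of at least 1, adjusted by Benjamini and Hochberg. The fold change understates differences of low genes. edgeR 4.0.16 (50 genes called) and DESeq2 1.42.0 were run on the recovered reads as alternatives. Only limma and edgeR's quasi-likelihood test were checked on simulated data, at a fixed spread, which does not give their error rates in these data.

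Same-numbered replicates are not known to be paired, and no batch is given. Members, lists and windows were chosen with earlier results of these data known. Named genes were the 5 nearest tested on each side, the 5 highest and the 2 largest differences each way with a mean of at least 50 and no overlap. A further rule, members with a published name, was dropped because no table at hand pairs identifiers with names. No sequences are printed, as none were at hand.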

Additional observations from a re-analysis of the deposited data

How the results depend on the processing

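The number of members called stayed at 0 in limma under other pseudocounts, filters and scalings and without any 1 library, and in both edgeR fits. It was 4 with DESeq2, 4 with the replicate block and again 4 when the block was crossed (mutant replicate 1 with wild-type replicate 2), a fit added, like edgeR with TMM, after the data were seen. The 4 were in each case Solyc09g083200.2.1, Solyc09g084470.2.1, Solyc09g084480.2.1 and Solyc09g090130.2.1. Same-numbered deviations correlated at -0.109. With 2 replicates per genotype this cannot show whether the samples were paired, and neither block is read as stronger evidence. Over all genes the count of 46 was 214 with DESeq2, 368 with the replicate block, 219 with the crossed block, 19 with a mean of at least 10, and 6 to 43 without 1 library (6 without either wild-type library, 7 without mutant replicate 1); the cause was not tested. The members' median absolute log2 fold change was 0.263 to 0.371 without 1 library, where the mean of 1 genotype rests on a single library. In those fits 2 to 8 of 11 windows exceeded it. With all 4 libraries, 8 of 11 windows exceeded the flanks under TMM rescaling, RLE rescaling or a pseudocount of 5. The number was 9 with a mean of at least 10 and 5 with no filter. For other window sizes and sets, the numbers of larger windows were 15 of 23, 38 of 48 and 99 of 151.

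Of the 17 members named by rule, 9 kept the sign of their log2 fold change throughout. The sign turned for Solyc09g090110.2.1 with DESeq2, RLE and TMM rescaling (-0.03, -0.03 and -0.04). Without 1 library, values crossed 0 for Solyc09g083380.2.1 (-0.34 to 0.19), Solyc09g090110.2.1 (-0.1 to 0.15), Solyc09g090160.2.1 (-0.13 to 0.3), Solyc09g090190.2.1 (-0.23 to 0.14), Solyc09g090200.2.1 (-0.06 to 0.28), Solyc09g090220.2.1 (-0.58 to 0.25), Solyc09g090660.2.1 (-0.37 to 0.03) and Solyc09g091180.2.1 (-0.37 to 0.01). None of these 8 genes was called in any fit.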
